A study of Homo sapiens with 8 samples.

Results

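The effect of carboplatin, a platinum drug that crosslinks DNA, was read from 8 arrays. The cells were a line of human lung adenocarcinoma, a non-small cell cancer, whose name the labels do not give. The 4 arrays whose titles name carboplatin, alone or together with rosiglitazone, were set against the 4 whose titles do not. These 8 arrays are all 8 of the series. Rosiglitazone, a ligand of the nuclear receptor PPARγ, was the second factor. Cells in DMEM with serum were given control medium, described in the series design as DMSO/control, rosiglitazone at 1 µM, carboplatin at 10 µM, or the combination of the 2 drugs, and were harvested at 24 h. The doses in the combination are not restated in the labels. Each of the 4 groups had 2 arrays. The labels do not say whether these came from separate cultures, so the p-values measure only the spread between arrays, which may be technical. The series title concerns synergy between PPARγ ligands and platinum drugs, and the comparison asked here is what carboplatin did on average and whether it did the same with rosiglitazone present.

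Platinum adducts block replication forks and activate the kinases ATM and ATR, which stabilise the transcription factor p53. p53 then binds decamer elements near genes that stop the cell cycle, repair DNA, restrain p53 itself or start cell death. Its target p21, the product of CDKN1A, inhibits cyclin-dependent kinases. This keeps RB family proteins and the repressor complex DREAM on promoters of replication and mitosis genes, many of which carry a CHR element, and a CCAAT box upstream of it.

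Promoter windows were taken from the RefSeq annotation of GRCh38.p14, from 250 bases before to 50 bases after the start site. Those printed belong to genes of these 2 classes and were chosen among windows that held a match. The first 3 windows are those of p53 target genes in which a p53 half-site, a single decamer, was found, and capitals mark it. The windows are chr15:63157428-63157727 on the minus strand for RPS27L, chr5:58460037-58460336 on the minus strand for PLK2 and chr15:88621090-88621389 on the plus strand for AEN. The last 2 windows are those of the mitotic genes CDC20, chr1:43358731-43359030, and CCNF, chr16:2429197-2429496, both on the plus strand, with capitals on the CHR letters TTTGAA or, on the other strand, TTCAAA. All are written 5′ to 3′ in the direction of the gene.
RPS27L: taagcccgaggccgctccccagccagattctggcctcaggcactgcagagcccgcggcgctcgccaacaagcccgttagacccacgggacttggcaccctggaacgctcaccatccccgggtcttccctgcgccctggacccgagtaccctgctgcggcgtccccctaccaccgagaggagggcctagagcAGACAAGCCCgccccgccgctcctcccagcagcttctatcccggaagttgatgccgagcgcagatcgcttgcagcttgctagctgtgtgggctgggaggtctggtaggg
PLK2: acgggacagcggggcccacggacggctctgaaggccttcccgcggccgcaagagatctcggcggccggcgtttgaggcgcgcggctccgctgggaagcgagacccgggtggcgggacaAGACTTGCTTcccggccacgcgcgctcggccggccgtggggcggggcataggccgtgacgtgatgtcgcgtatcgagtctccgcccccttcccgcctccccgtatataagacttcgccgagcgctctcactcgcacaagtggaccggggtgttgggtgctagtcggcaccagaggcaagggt
AEN: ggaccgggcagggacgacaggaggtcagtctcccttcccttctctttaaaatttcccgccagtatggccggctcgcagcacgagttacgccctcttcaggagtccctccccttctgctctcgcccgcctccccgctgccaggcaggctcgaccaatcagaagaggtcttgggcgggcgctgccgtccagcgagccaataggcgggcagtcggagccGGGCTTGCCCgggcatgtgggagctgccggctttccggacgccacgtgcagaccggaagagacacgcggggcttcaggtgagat
CDC20: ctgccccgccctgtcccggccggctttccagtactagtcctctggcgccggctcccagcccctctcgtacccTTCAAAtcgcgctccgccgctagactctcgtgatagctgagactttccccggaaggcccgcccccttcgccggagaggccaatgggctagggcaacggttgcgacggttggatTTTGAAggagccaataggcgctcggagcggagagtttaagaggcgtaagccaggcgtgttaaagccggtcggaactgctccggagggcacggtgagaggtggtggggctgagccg
CCNF: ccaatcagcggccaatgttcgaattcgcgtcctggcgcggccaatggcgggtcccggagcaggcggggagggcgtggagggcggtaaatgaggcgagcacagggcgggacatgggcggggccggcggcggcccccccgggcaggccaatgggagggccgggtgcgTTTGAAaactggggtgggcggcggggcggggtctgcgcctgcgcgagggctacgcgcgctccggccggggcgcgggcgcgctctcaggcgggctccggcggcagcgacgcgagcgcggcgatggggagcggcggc
Counted from the start site, the decamer ran from -59 to -50 in RPS27L, from -132 to -123 in PLK2 and from -34 to -25 in AEN. CDC20 had the CHR letters at -65 to -60 and, on the other strand, at -178 to -173. CCNF had them at -85 to -80, and the window of STMN1, another mitotic gene named below, did not hold them. Searched on both strands, the decamer was found in 6.54% of all 27305 windows searched and in 4.99% of the 6667 windows of tested genes. It was found in 4 of the 32 tested p53 targets with a window, which are these 3 and ACTA2. A pair of decamers at most 13 bases apart was in 2 of the 6667 windows and in 0 of these 32. The windows of CDKN1A, GDF15 and DDB2 held neither the decamer nor the CHR letters, which says only that these letters are not in these windows. The CHR letters, on either strand, were in 15.4% of all windows, in 9.6% of those of tested genes and in 28 of 41 (68.3%) of those of G2 and mitosis genes. CCAAT, on either strand, was in 37.5% of the windows of tested genes and in 33 of 41 (80.5%) of those of G2 and mitosis genes. These matches describe the letters in the windows only, and no search allowed mismatches.

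Total RNA was labelled and hybridised to Affymetrix arrays, where 1 or more probe sets stand for a gene. Levels below are log2(signal + 16) after quantile normalization, on which a difference of 1 is a doubling of signal plus 16 and the lowest possible level is 4. Differences are those between the mean of the 4 arrays with carboplatin and the mean of the 4 without, given with the standard error (SE) of the fit. Median deposited signals were 37.2 to 52.2 on the arrays with carboplatin and 36.2 to 54.3 on those without, so the arms overlapped in brightness. The ratio of 3′ to 5′ signal of GAPDH was 0.833 to 1.05 and that of ACTB 0.938 to 1.39 over the 8 arrays. Arrays of the same group correlated at 0.974 to 0.976 and arrays across the carboplatin arms at 0.969 to 0.984, so the arms were not separated by overall correlation. The epithelial keratins KRT18, at 12.14 to 12.51, and KRT7, at 11.29 to 12.07, were among the brightest genes, while KRT19 was at 7.38 to 7.67. Of 18 lung and epithelial markers with a probe set, 3 had a median above 8. The lung adenocarcinoma marker NKX2-1 stayed at 4.25 to 5.4 and EPCAM at 4.24 to 5.28, below the filter on dim probe sets. Of markers of other cells, 1 of 7 for fibroblasts, 0 of 6 for endothelium and 2 of 8 for blood passed the filter. Their summed deposited signals with carboplatin were 100 to 133, 42 to 44.7 and 117 to 247, against 82 to 149, 45.9 to 122 and 161 to 229 without. Those that passed were DCN of fibroblasts and CD3E and HBB of blood, at medians of 6.07, 6.01 and 6. The highest endothelial median was that of PECAM1, at 5.22. The dimmest of each list, LUM for fibroblasts, CDH5 for endothelium and LYZ for blood, lay near the floor at 4.03, 4.15 and 4.13.

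Carboplatin raised 3 named genes and 1 probe set with no gene name in the annotation used. CDKN1A, which encodes the cell cycle inhibitor p21, rose 2.91-fold. GDF15, a secreted stress cytokine and p53 target, rose 2.35-fold. ERF, a transcriptional repressor of the ETS family, rose 1.87-fold on average, but most of its difference lay between control and carboplatin alone. In limma with Benjamini-Hochberg adjustment these 4 of 13329 probe sets (0.03%) passed an adjusted p of 0.05 as higher, and 0 (0%) passed as lower. By gene, 3 of 8023 (0.0374%) were called higher. At an unadjusted p under 0.05, 308 probe sets were higher and 228 lower, 536 in all, where 666.45 would be reached by chance. The median 95% interval of a gene extended 0.3 to either side.

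CDKN1A was at 7.43 and 7.62 in control, 7.48 and 7.55 under rosiglitazone alone, 9.1 and 9.06 under carboplatin alone, and 9.34 and 8.75 under both drugs. All 4 arrays with carboplatin lay more than a log2 unit above every array without, and the arrays with rosiglitazone alone lay within the range of the control arrays. The difference was 1.54 ± 0.13 (SE, 4 against 4 arrays; adjusted p = 0.00168). It was 1.55 ± 0.18 without rosiglitazone and 1.53 ± 0.18 with it, and the 95% interval of the difference between these was -0.59 to 0.56.

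GDF15 was at 7.26 and 7.29 in control, 6.61 and 6.89 under rosiglitazone alone, 8.25 and 8.44 under carboplatin alone, and 8.11 and 8.17 under both drugs. The rosiglitazone arrays were the lowest and the groups with and without carboplatin did not overlap. The difference was 1.23 ± 0.11 (SE; adjusted p = 0.00218), 1.07 ± 0.16 without rosiglitazone and 1.39 ± 0.16 with it. The name of its probe set carries the mark for probes that can match other transcripts, and its other probe set was below the filter. With the deposited scaling GDF15 was not called (adjusted p = 0.152).

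ERF was at 7.01 and 6.62 in control, 7.8 and 8.09 under rosiglitazone alone, 8.41 and 8.3 under carboplatin alone, and 8.23 and 8.21 under both drugs. The control arrays stood apart at the low end, while the other 6 arrays lay between 7.8 and 8.41. The difference was 0.91 ± 0.12 (SE; adjusted p = 0.048), made up of 1.54 ± 0.18 without rosiglitazone and 0.27 ± 0.18 with it. The interaction was -1.26 ± 0.25 and did not pass over all probe sets (adjusted p = 0.821). ERF was called in 2 of 19 alternative settings, with adjusted p from 0.027 to 1, and leaving out any single array ended its call.

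The unnamed probe set 207813_s_at was at 6.71 and 6.9 in control, 6.3 and 6.58 under rosiglitazone alone, 7.76 and 7.45 under carboplatin alone, and 8.06 and 7.84 under both drugs. Its arms did not overlap either, and its highest values were those with both drugs. It rose by 1.15 ± 0.13 (SE; adjusted p = 0.013), 0.8 without rosiglitazone and 1.5 with it. CDKN1A was called without each of the 8 arrays in turn, and so was GDF15. The unnamed probe set lost its call without either control array, the first rosiglitazone array, the first carboplatin array or the first combination array, which left 2 probe sets called in each case.

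**Figure D1:**
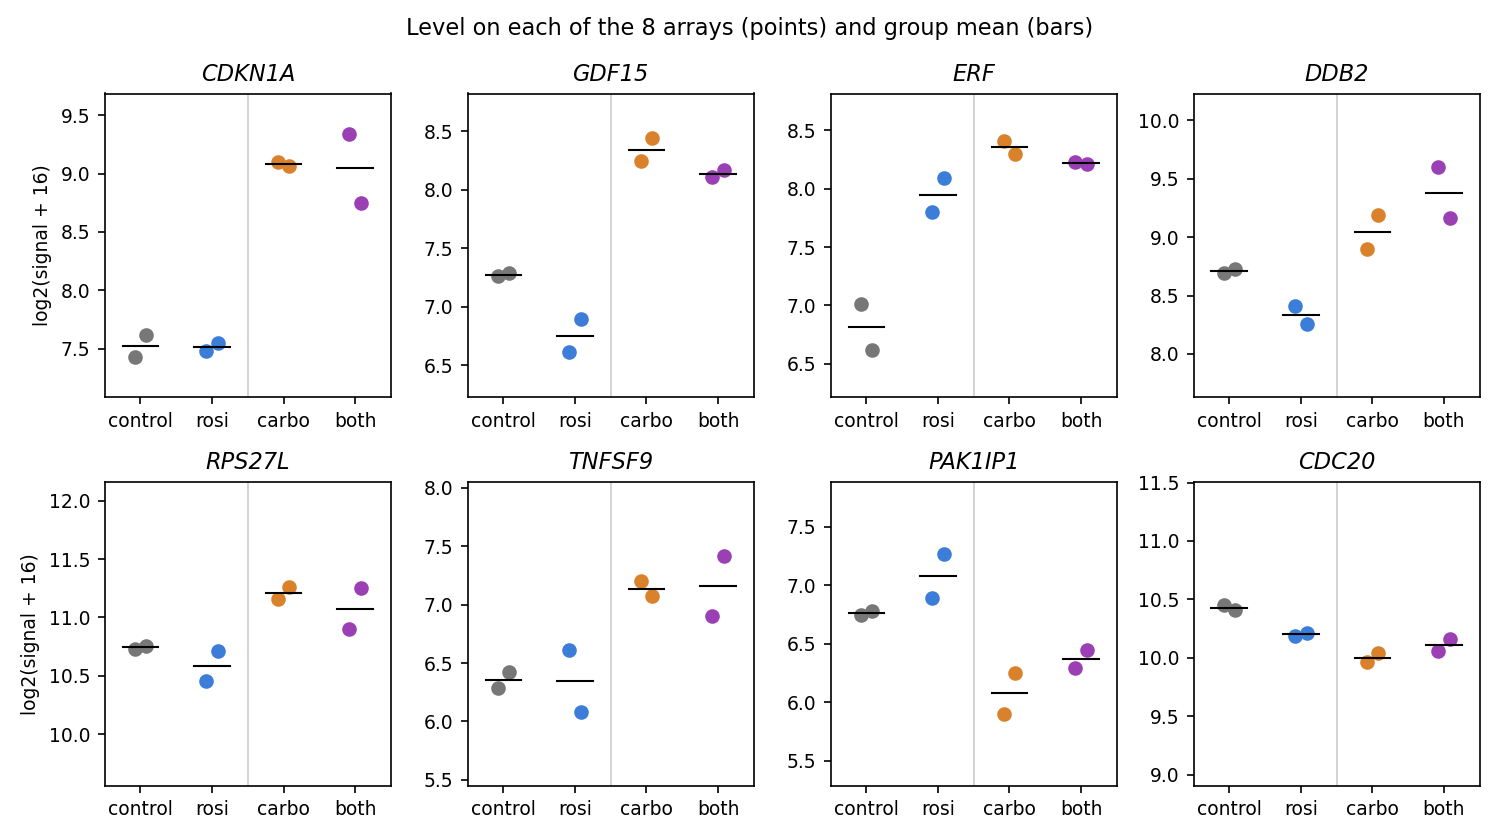
Level of 8 genes on each of the 8 arrays, as log2(signal + 16) after quantile normalization; points are arrays, bars are group means of 2 arrays, and the grey line separates the arrays without carboplatin (control, rosi for rosiglitazone) from those with it (carbo for carboplatin alone, both for the combination). CDKN1A sits at 7.43 to 7.62 without and 8.75 to 9.34 with carboplatin, ERF is low in the 2 control arrays only, and CDC20 differs by -0.26.

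Among the genes with the 10 smallest p-values for a rise, 7 did not pass, and 3 of these, DDB2, RPS27L and TNFRSF10B, are on the lists of p53 targets. DDB2, the damage-recognition subunit of global nucleotide excision repair, was at 8.69 and 8.73 in control, 8.41 and 8.26 under rosiglitazone alone, 8.9 and 9.19 under carboplatin alone, and 9.6 and 9.16 under both drugs. Its rosiglitazone arrays were the lowest and its arms did not overlap. It was 0.69 ± 0.12 (SE) higher with carboplatin (adjusted p = 0.254), by 0.34 ± 0.17 without rosiglitazone and 1.04 ± 0.17 with it.

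RPS27L, a ribosomal protein paralog that binds MDM2, was at 10.73 and 10.76 in control, 10.46 and 10.71 under rosiglitazone alone, 11.16 and 11.26 under carboplatin alone, and 10.9 and 11.25 under both drugs. The difference was 0.48 ± 0.09 (SE; adjusted p = 0.474), nearly equal without rosiglitazone (0.47) and with it (0.49). TNFSF9, the ligand of the costimulatory receptor 4-1BB, was at 6.08 to 6.61 on the arrays without carboplatin and 6.9 to 7.42 on those with it, and differed by 0.8 ± 0.16 (SE; adjusted p = 0.55). TNFRSF10B, the death receptor DR5, was at 7.89 to 8.32 without and 8.48 to 8.77 with carboplatin, a difference of 0.47 ± 0.1 (SE; adjusted p = 0.684). In all 3 genes the 4 arrays with carboplatin lay above the 4 without. The other probe sets of TNFRSF10B gave 0.19 and 0.33.

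Others of the 10 smallest p-values among higher genes were not p53 targets of the lists. EPS8L2, an actin-binding relative of the receptor substrate EPS8, was at 6.41 to 6.59 without and 7.02 to 7.17 with carboplatin, a narrow range in each arm (difference 0.6 ± 0.12, adjusted p = 0.543). POMZP3, a fusion gene of sequence shared with POM121 and ZP3, differed by 0.5 ± 0.09 (adjusted p = 0.44), and its signal cannot be told apart from that of its parent genes. STOM, the membrane protein stomatin, differed by 0.65 ± 0.14 (adjusted p = 0.55) and its arms overlapped, since it was at 8.97 on an array with rosiglitazone alone and 8.78 on an array with carboplatin alone. Its other tested probe set differed by 0.76 ± 0.13 (adjusted p = 0.254) with separate arms.

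No gene fell past the threshold, and the smallest adjusted p among lower probe sets was 0.5425. PAK1IP1, a nucleolar protein of ribosome biogenesis, was at 6.75 and 6.78 in control, 6.89 and 7.27 under rosiglitazone alone, 5.9 and 6.25 under carboplatin alone, and 6.29 and 6.45 under both drugs. Its arms did not overlap and it differed by -0.7 ± 0.15 (SE; adjusted p = 0.562), with -0.69 without rosiglitazone and -0.7 with it. CDC20, the activator of the anaphase-promoting complex, was at 10.45 and 10.41 in control, 10.19 and 10.21 under rosiglitazone alone, 9.96 and 10.04 under carboplatin alone, and 10.06 and 10.16 under both drugs. The arms were separate by a small margin, at -0.26 ± 0.07 (SE; adjusted p = 0.997), and the difference was -0.43 ± 0.1 without rosiglitazone against -0.09 ± 0.1 with it.

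The other 8 of the 10 smallest p-values among lower genes had differences from -0.77 to -0.39 and adjusted p from 0.562 to 0.997. TFAP2A, the transcription factor AP-2α, differed by -0.49 ± 0.1, but its other probe set gave 0.09. FAM174C (-0.48), SWAP70 (-0.48), an actin-binding signalling protein, and PAXBP1 (-0.47), a partner of PAX3 and PAX7, were lower on all 4 arrays with carboplatin than on any without. The second tested probe set of PAXBP1 gave -0.37 and that of SWAP70 -0.06. GMEB1 and TNFSF8 were dim, at mean levels of 5.71 and 5.43 where the floor is 4. GMEB1 (-0.77), TNFSF8 (-0.73), FKBP2 (-0.43) and CYBC1 (-0.39) had arms that overlapped. Of these GMEB1, FKBP2 and CYBC1 had most of the difference in the pair without rosiglitazone (-1.29, -0.82 and -0.7) and TNFSF8, the ligand of CD30, in the pair with it (-1.3 against -0.17).

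Most measured p53 target genes were higher with carboplatin. The lists held 51 p53 targets in 4 roles. Of these 42 had a probe set with that symbol alone, and 39 passed the filter. TNFRSF10C, POLH and ABCA12 were below it, and 9 listed genes, BTG2 and BBC3 among them, had no such probe set and were not followed by name. Probe sets with no symbol or several were tested unnamed, so some of these 9 may be among them, the unnamed call included. Of the 39, 31 were higher with carboplatin and 8 lower, and their median difference was 0.223, where 48.9% of all 8023 genes were higher and the median of all was -0.0036. CDKN1A and GDF15 were called. At an unadjusted p under 0.05, 19 were higher and 0 lower, beside 170 genes higher (2.12%) and 141 lower (1.76%) of all tested. In 10 the 4 arrays with carboplatin all lay above the other 4 and in 0 all below, beside 91 genes (1.13%) and 96 genes (1.2%) of all tested. With the deposited scaling, where the median of all probe sets was -0.097, the count at an unadjusted p under 0.05 was 9. Over leaving out each array in turn it was 14 to 16.

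Centred on its mean over the 8 arrays, the median p53 target was at -0.199 and -0.143 in control, -0.036 and -0.127 under rosiglitazone alone, 0.117 and 0.234 under carboplatin alone, and 0.132 and 0.143 under both drugs. Every array with carboplatin lay above every array without, and the control arrays were the lowest.

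**Figure D2:**
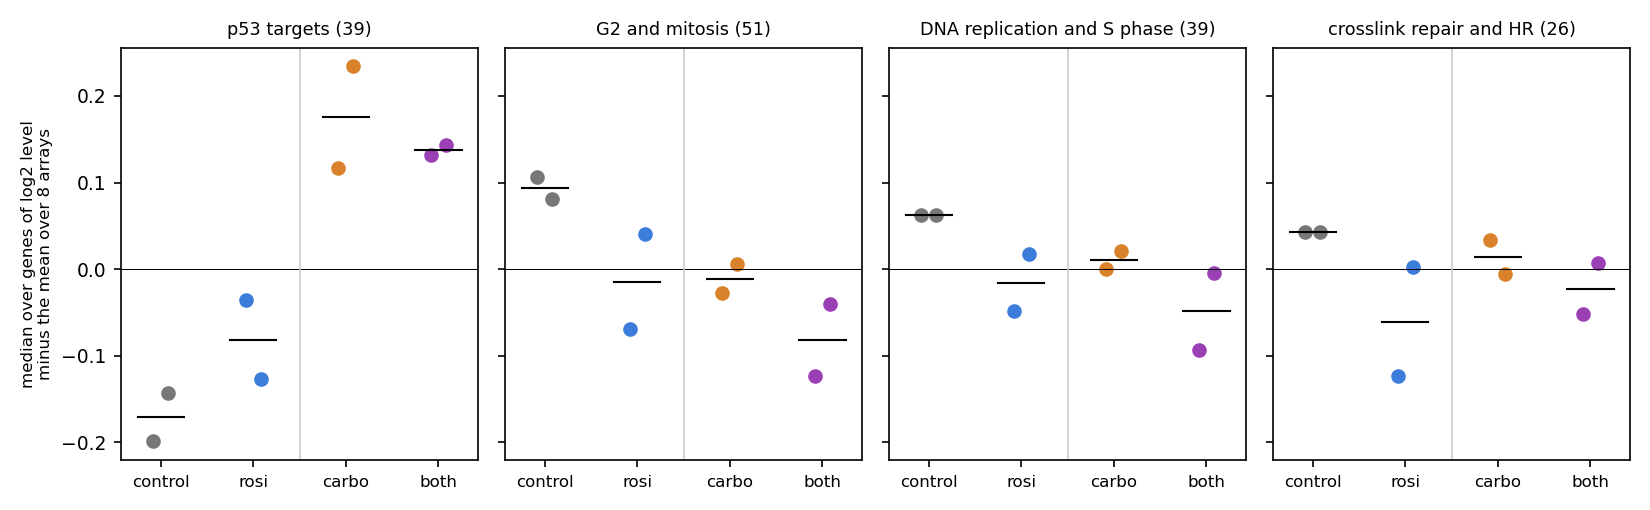
Median over the genes of 4 lists of the level minus the gene's mean over the 8 arrays (log2), for each array (points) with the mean of the 2 arrays of a group (bars); HR is homologous recombination and the groups are as named under the axis. The p53 targets are above 0 on all 4 arrays with carboplatin (0.117 to 0.234) and below 0 on all 4 without, while the arms overlap in the other 3 lists.

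Among targets that act on the cell cycle, 6 of 8 were higher, with a median of 0.19. PLK3, a kinase of the stress response, was at 5.49 and 5.77 in control, 6.12 and 5.21 under rosiglitazone alone, 6.44 and 6.43 under carboplatin alone, and 6.63 and 6.33 under both drugs, a difference of 0.81 ± 0.21 with separate arms. Its other probe set gave 0.54. PLK2, a related kinase, was at 8.05 to 8.73 without and 8.7 to 9.07 with carboplatin, and differed by 0.5 ± 0.11. Its arms overlapped by a control array at 8.73 and a combination array at 8.7. CCNG1, the atypical cyclin G1, differed by 0.25 ± 0.1 and SFN, the 14-3-3σ protein that holds mitotic kinases in the cytoplasm, by 0.13 ± 0.06. SFN was already among the brightest genes, at 12.02 to 12.47. Its difference was 0.01 without rosiglitazone and 0.25 with it, and its other probe sets gave 0.18 and 0.3. GTSE1, a p53 inhibitor expressed in G2, was at -0.14 ± 0.11, and GADD45A and PPP1R15A at 0.06 and 0. None of these 7 had an adjusted p under 0.05.

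Among targets of cell death, 8 of 12 were higher, with a median of 0.175, and none was called. FAS, the CD95 death receptor, was at 6.6 and 6.37 in control, 5.96 and 6.53 under rosiglitazone alone, 6.61 and 7.38 under carboplatin alone, and 7.15 and 7.18 under both drugs. It differed by 0.71 ± 0.19, and its arms nearly touched, at 6.6 and 6.61. EDA2R, a receptor for an ectodysplasin isoform, was dim at 4.94 to 5.34 without and 5.53 to 6.04 with carboplatin, and differed by 0.63 ± 0.19. With TNFRSF10B these are 3 members of the tumour necrosis factor receptor family, and they were the 3 genes of this role with separate arms.

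The nuclease AEN differed by 0.69 ± 0.18 and BAX, the pore-forming protein of mitochondrial apoptosis, by 0.63 ± 0.27, both with overlapping arms. In both the lowest value was on the first rosiglitazone array, at 6.25 for AEN and 5.43 for BAX. Without that array the difference of BAX was 0.273, and its second probe set gave 0.26 ± 0.19. TRAF4, BID and PMAIP1, the last encoding the BH3-only protein NOXA, differed by 0.21, 0.15 and 0.12. TP53I3, PERP, CASP1 and APAF1 lay between -0.09 and -0.03. APAF1, the scaffold of the apoptosome, was at 0.59 without rosiglitazone and -0.65 with it.

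All 5 tested targets of the list headed DNA repair were above 0, with a median of 0.208, and only DDB2 of them had an unadjusted p under 0.05. The heading is that of the list and does not give the function of each member. TRIAP1 (0.22 ± 0.12) and XPC (0.21 ± 0.1), which recognises bulky lesions together with DDB2, were next. PCNA and FANCC were at 0.09 and 0.08.

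In the group of feedback, signalling and metabolism, 12 of 14 were higher, with the highest median of the 4 roles at 0.424. Besides GDF15 and RPS27L, separate arms were found for SESN1, a sestrin that restrains mTORC1, at 6.17 to 6.73 without and 6.83 to 7.21 with carboplatin (0.54 ± 0.15). They were also found for PLXNB2, a semaphorin receptor, at 8.28 to 8.76 without and 8.82 to 9.22 with carboplatin (0.52 ± 0.14). PHLDA3, which competes with AKT for membrane lipids, differed by 0.5 ± 0.12. PPM1D, the WIP1 phosphatase that acts against p53, was at 0.48 ± 0.18. MDM2, the ubiquitin ligase of p53, was at 5.75 and 5.28 in control, 6.33 and 5.05 under rosiglitazone alone, 6.2 and 5.94 under carboplatin alone, and 6.44 and 6.02 under both drugs. The arrays with rosiglitazone alone held both the second highest and the lowest value, and the MDM2 difference of 0.55 ± 0.26 had a 95% interval of -0.03 to 1.13. Without the second rosiglitazone array it was 0.228 and without the first 0.873, and the 4 other MDM2 probe sets, all below the filter, gave -0.02 to 0.1. ACTA2 (0.37 ± 0.15) and ASCC3 (0.35 ± 0.14) were also above 0, LIF was at 0.12 ± 0.13 and TGFA at -0.21 ± 0.18, and ZMAT3, CSF1 and TNFAIP8 lay between -0.02 and 0.16.

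The genes that control p53 had no called member. Of 10 tested regulators, 4 were higher and 6 lower, with a median of -0.063 and 0 called. CHEK1, the checkpoint kinase downstream of ATR, was at -0.34 ± 0.15, with -0.06 without rosiglitazone and -0.61 with it, and its other probe set gave -0.27. USP7, a deubiquitinase of p53 and MDM2, was at 0.16 ± 0.08.

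**Figure D3:**
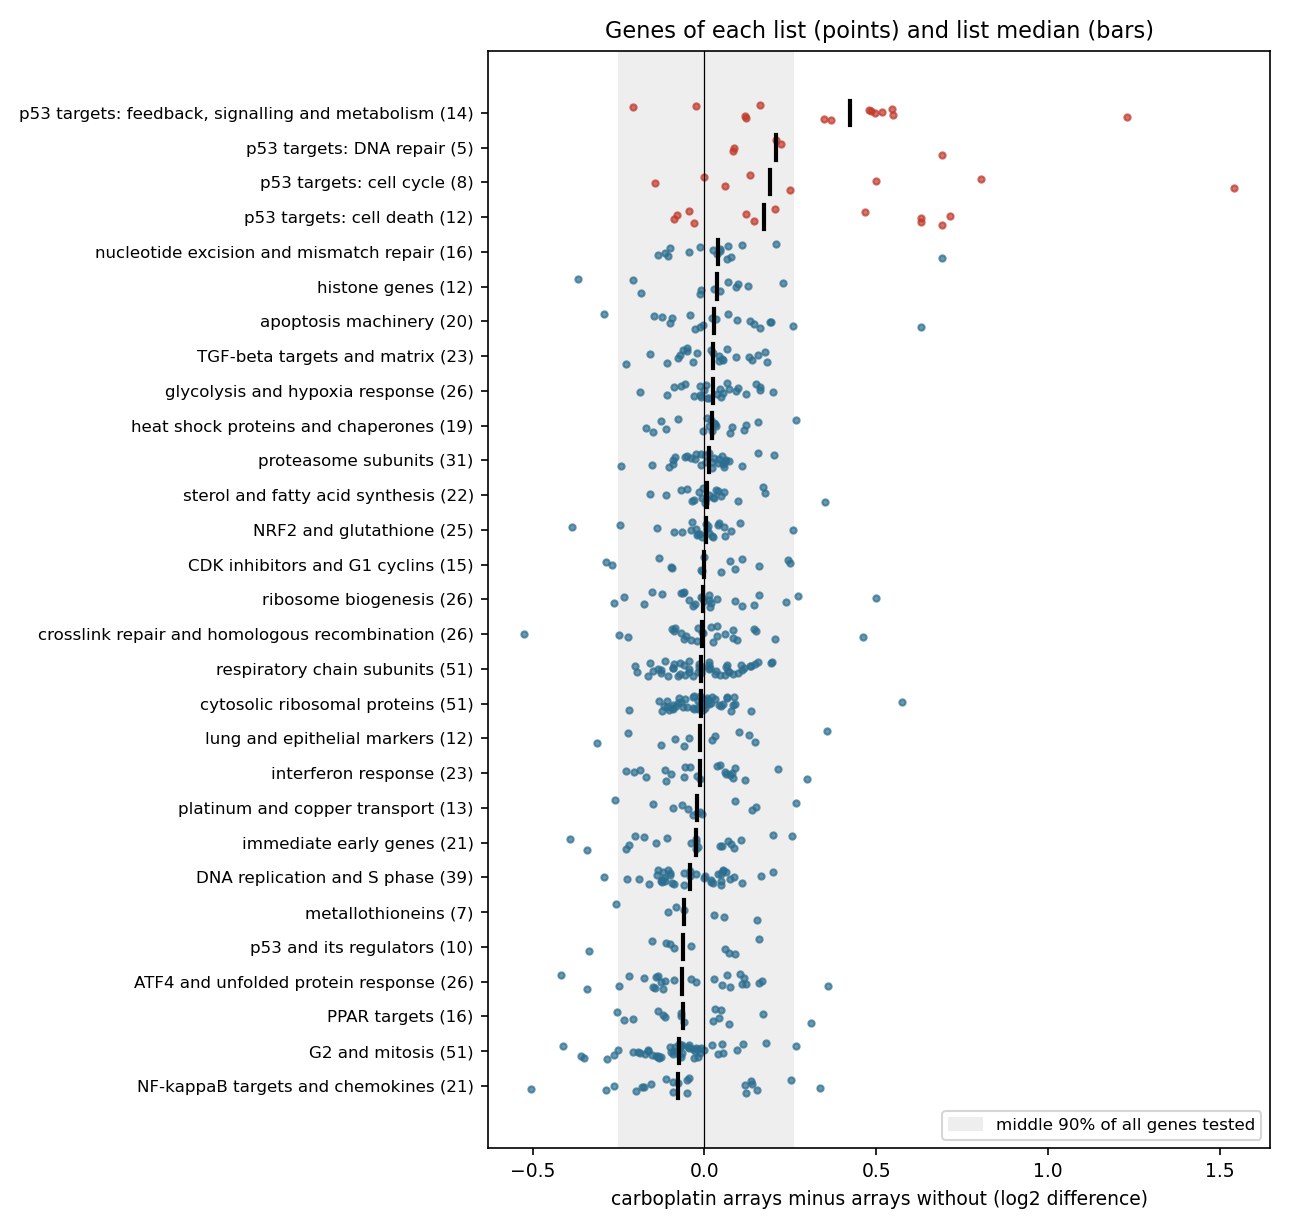
Difference between the 4 arrays with and the 4 without carboplatin (log2) for each tested gene (points) of each list with at least 5 tested genes, with list medians (black bars), the number of genes tested in brackets, and the range from the 5th to the 95th percentile of all 8023 genes (-0.25 to 0.26) in grey. The 4 groups of p53 targets (red) have the 4 highest medians, from 0.175 to 0.424, and the remaining medians lie between -0.076 and 0.041.

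Genes of G2 and mitosis can be repressed by DREAM and RB after p21 accumulates, which was not tested here. With carboplatin they were mostly slightly lower. RNA came from whole cultures, so fewer cells in these phases and less RNA per cell cannot be told apart. Of 51 tested, 43 were lower and 8 higher, with a median of -0.073 and none called, beside a median of -0.0036 over all genes. At an unadjusted p under 0.05, 5 were lower, beside 141 (1.76%) of all genes. These were CDC20, CCNF, STMN1, ASPM and CDKN3. CCNF, the cyclin of an SCF ubiquitin ligase, was at 7.49 and 7.52 in control, 7.31 and 7.44 under rosiglitazone alone, 7.03 and 7.12 under carboplatin alone, and 6.96 and 7.24 under both drugs. Its arms did not overlap and it differed by -0.36 ± 0.12, with -0.2 for its other probe set. STMN1, the microtubule-destabilising protein stathmin, differed by -0.41 ± 0.14 and was also lower with rosiglitazone alone (7.21 and 7.4) than in control (8 and 7.74). CDC20, CCNF and CDC25C were the 3 genes of the list with all 4 arrays with carboplatin below the other 4, beside 96 (1.2%) of all genes.

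The mitotic list as a whole did not separate the arms. Its per-array median was 0.106 and 0.081 in control, -0.069 and 0.04 under rosiglitazone alone, -0.028 and 0.006 under carboplatin alone, and -0.124 and -0.04 under both drugs, so the control arrays were highest and an array with rosiglitazone alone was below both with carboplatin alone. The median stayed below 0 in all 20 alternatives, from -0.189 to -0.052. The count at an unadjusted p under 0.05 was 0 with the deposited scaling. It was 3 with median scaling, without an intensity trend, and without the first control, second rosiglitazone, first carboplatin or first combination array. Of the mitotic genes with a window, the 28 with CHR letters had a median of -0.087 and 23 of them were lower. The 13 without had a median of -0.073 and all 13 were lower, so the medians with and without the letters were close. Over all tested genes the medians were -0.021 with the letters (640 genes) and -0.003 without (6027 genes).

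Genes of DNA replication and S phase had a median of -0.042, with 23 of 39 lower and none at an unadjusted p under 0.05. MCM4 and MCM5, subunits of the replicative helicase, were at -0.23 ± 0.11 and -0.19 ± 0.1. The 3 other tested probe sets of MCM4 gave 0.06, -0.01 and 0.23, and that of MCM5 -0.24. The single-strand binding protein RPA1 was at 0.2 ± 0.11. Among CDK inhibitors and G1 cyclins other than CDKN1A, 7 of 15 were higher, with a median of -0.002. CDKN1B, which encodes p27, was at -0.27 ± 0.14. Neither list had a called gene.

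The general DNA repair and apoptosis lists, which share some members with the p53 targets, had medians near 0. Crosslink repair and homologous recombination, the pathway that removes platinum interstrand crosslinks, had 12 of 26 genes higher and a median of -0.005. The nuclease MRE11 was at -0.53 ± 0.21, and FANCL and FANCE of the Fanconi anaemia pathway were at -0.25 ± 0.18 and -0.22 ± 0.16. FANCF of the same pathway went the other way, at 0.46, the highest of the list. Its arrays under rosiglitazone alone were far apart, at 6.571 and 4.704. Nucleotide excision and mismatch repair had 10 of 16 higher and a median of 0.041. DDB2 and XPC are on it as well, and DDB2 was its gene with an unadjusted p under 0.05. The general apoptosis machinery had 11 of 20 higher and a median of 0.028. In it the survival protein BCL2L1 was at 0.26 ± 0.1, with 0.27 and 0.03 for its other probe sets, and the adaptor FADD, lower on every array with carboplatin, at -0.15 ± 0.09. None of these 3 lists had a called gene.

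Genes that move or bind platinum did not pass either. Of 13 tested transporters of platinum and copper, 4 were higher and 9 lower. The copper importer SLC31A1, through which platinum drugs can enter, was at 0.27 ± 0.19, the exporter SLC47A1 at -0.26 ± 0.13 and ABCC5 at 0.14 ± 0.13. The 7 tested metallothioneins, cysteine-rich proteins that bind metals including platinum, lay between -0.26 and 0.15 with a median of -0.059. Their probes share sequence, so single members are uncertain. Their per-array median separated the arrays by rosiglitazone, at 0.424 and 0.332 in control, 0.411 and 0.244 under carboplatin alone, -0.237 and -0.461 under rosiglitazone alone, and -0.153 and -0.553 under both drugs. MT1H, for example, was at 10.71 and 10.42 in control, 10.49 and 10.48 under carboplatin alone, 9.93 and 9.82 under rosiglitazone alone, and 9.68 and 9.82 under both drugs.

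The PPAR target list, a check of the second factor, was also split by rosiglitazone, in the opposite direction. Its per-array median was -0.289 and -0.287 in control and -0.212 and -0.25 with carboplatin, against 0.262 and 0.219 with rosiglitazone and 0.158 and 0.252 with the combination. PLIN2, the lipid droplet coat protein, was at 9.21 and 9.28 in control, 9.11 and 9.05 under carboplatin alone, 10.9 and 10.92 under rosiglitazone alone, and 10.93 and 10.67 under both drugs. The carboplatin difference of PLIN2 was -0.13 ± 0.08, and that of the fatty acid oxidation genes ACADM and HADHA 0.31 ± 0.18 and 0.17 ± 0.1. The carboplatin median of the 16 tested PPAR targets was -0.064.

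Stress and inflammatory genes had no called member. CXCL8, the chemokine IL-8, was at 7.69 and 7.63 in control, 6.45 and 6.4 under rosiglitazone alone, 7.17 and 6.54 under carboplatin alone, and 6.07 and 6.37 under both drugs. Its difference of -0.51 ± 0.16 had overlapping arms, and its lower values were those with rosiglitazone. TNFAIP2 differed by 0.25 ± 0.08, with arms apart, and its other probe set gave 0.07. ICAM1, an adhesion receptor, differed by 0.34 ± 0.17, with 0.89 without rosiglitazone and -0.21 with it. Its other tested probe set gave 0.17. TRIB3, a pseudokinase of the ATF4 response, was at 8.87 to 9.23 without and 8.19 to 8.86 with carboplatin, a difference of -0.42 ± 0.14. The endoplasmic reticulum protein CRELD2 was at 0.36 ± 0.11, with 0.69 without rosiglitazone and 0.03 with it. None of these 5 was called, and the NF-κB and ATF4 lists had medians of -0.076 and -0.064.

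Among immediate early genes 8 of 21 were higher, the median was -0.024 and the range -0.39 to 0.26. KLF4 was at -0.39 ± 0.14, with 0.09 for its other probe set, ATF3 at -0.34 ± 0.18 and FOSL1 at -0.22 ± 0.11. Among NRF2 targets, which answer oxidative and electrophilic stress, HMOX1 was at 0.26 ± 0.1, OSGIN1 at -0.38 ± 0.15 and the cystine importer SLC7A11 at -0.24 ± 0.11. The list median was 0.005, with 13 of 25 higher. ACLY, the enzyme that makes cytosolic acetyl-CoA, was at 0.35 ± 0.12, with 0.08 and -0.2 for its 2 other tested probe sets, in a sterol and fatty acid synthesis list with a median of 0.009. Cytosolic ribosomal proteins had a median of -0.011 over 51 genes and proteasome subunits 0.013 over 31. PSMA5 of the proteasome was at -0.24 ± 0.08 with arms apart. Interferon, TGF-β, hypoxia, heat shock, respiratory chain, ribosome biogenesis and histone lists had medians from -0.012 to 0.036 and no called gene.

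Whether carboplatin acted alike with and without rosiglitazone was tested as the interaction, and 0 of 13329 probe sets (0%) passed in limma. The smallest adjusted p was 0.3133. At an unadjusted p under 0.05 there were 795, where 666.45 would be reached by chance. The 2 differences share no arrays. Over all tested genes 46.8% had the same sign in both, 22.6% being higher in both and 24.2% lower in both. Of the 39 p53 targets, 24 were higher in both, 1 was lower in both and 14 had opposite signs. Their median was 0.395 without rosiglitazone and 0.264 with it. The death targets had a median of 0.44 without rosiglitazone and 0.007 with it, and 6 of the 12 had opposite signs, whereas in feedback, signalling and metabolism the medians were 0.458 and 0.457. A difference between the 2 settings was not shown for any target: the interaction of DDB2 was 0.71 ± 0.24 with a 95% interval of 0.19 to 1.23, and its adjusted p was 0.821.

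**Figure D4:**
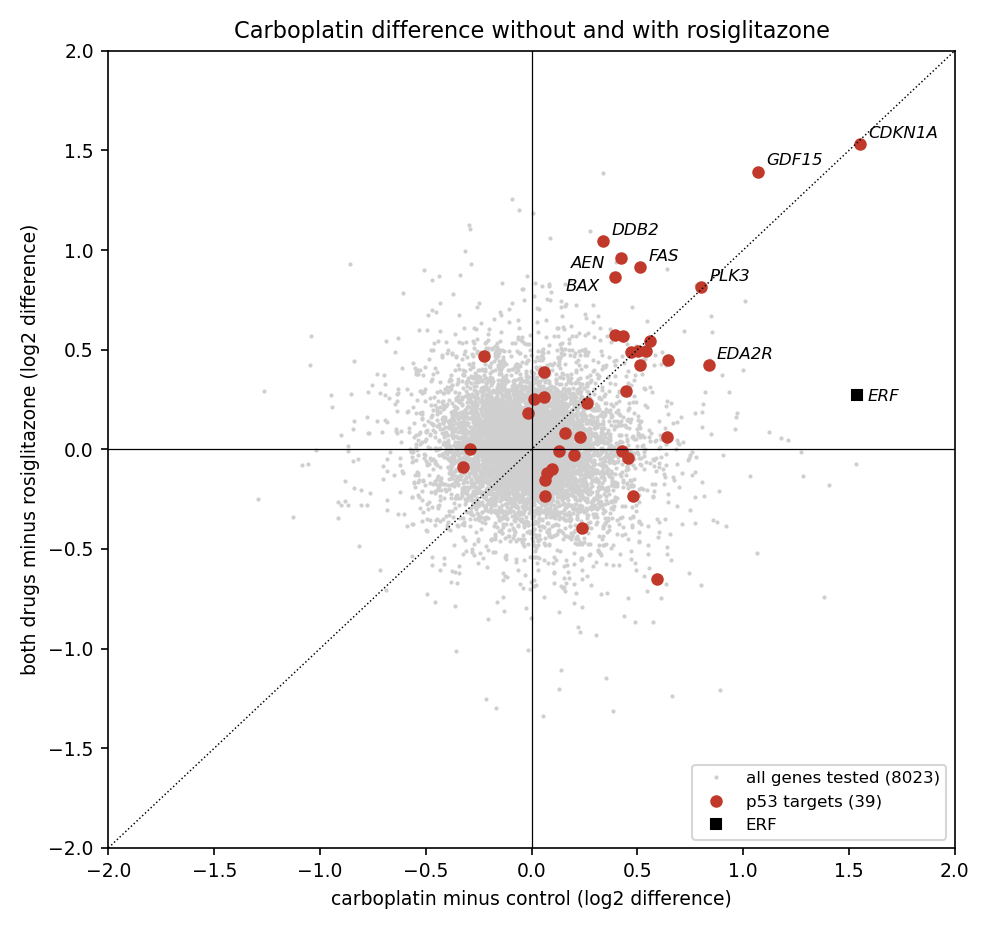
Difference between carboplatin and control (horizontal, log2) and between the combination and rosiglitazone alone (vertical, log2) for the 8023 genes tested (grey), the 39 p53 targets (red) and ERF (black square); the dotted line marks equal differences. CDKN1A lies on the line at 1.55 and 1.53, GDF15 at 1.07 and 1.39, DDB2 above it at 0.34 and 1.04, and ERF far below it at 1.54 and 0.27.

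The 5 smallest interaction p-values among named genes were those of PLCG1, ERF, ATP2C1, PCOTH and DCBLD2, and all of these but ERF had opposite signs in the 2 settings. PLCG1, a phospholipase of receptor signalling, was at 5.58 and 6.34 in control, 6.63 and 6.74 under rosiglitazone alone, 7.09 and 6.62 under carboplatin alone, and 5.38 and 5.57 under both drugs. Each drug alone lay above control and the combination lay lowest, an interaction of -2.1 ± 0.39 (SE). A second probe set of PLCG1 had an interaction of -0.53 ± 0.33. PCOTH and DCBLD2, a transmembrane receptor of the neuropilin type, also had group means under each drug alone above control, and interactions of -1.58 ± 0.34 and -1.44 ± 0.32, but in both the control mean was the lowest. ATP2C1, the Golgi calcium and manganese pump, had an interaction of 1.56 ± 0.32, at 7.19 and 7.18 in control, 6.23 and 6.67 under rosiglitazone alone, 5.87 and 5.97 under carboplatin alone, and 6.49 and 7 under both drugs. Both drugs alone lay below control in ATP2C1, and its 2 other tested probe sets had interactions of 0.33 ± 0.34 and 0.25 ± 0.32. The adjusted p of these interactions of PLCG1, PCOTH, DCBLD2 and ATP2C1 was 0.821. Of the settings run, interactions passed only with the deposited scaling, for 3 probe sets. They were PLCG1 (-2.25, adjusted p = 0.024), CIITA (-2.15, adjusted p = 0.0397), chosen after its value was seen, and an unnamed probe set.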

How the data were processed

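The 8 samples, 2 in each of 4 groups taken from the sample titles, were read on Affymetrix expression arrays. The deposited values are intensity values, 1 linear signal for each of 22283 probe sets. Which software and scaling made them is not given in the sources used here. Labelled RNA was primed at the poly(A) tail, per the labels' protocols.

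The deposited signals were taken as log2(signal + 16) and quantile normalized. The 68 control probe sets were removed, and 13329 with a mean above the 40th percentile of the rest were tested. The platform annotation gives 1 symbol to 19071 probe sets, several to 1043 and none to 2169. Those with 1 were named, and the brightest represented each of 8023 genes. Entrez identifiers matched 19059 of them to RefSeq's GRCh38.p14 table with no change of symbol.

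A model with 1 coefficient per group was fitted with lmFit and eBayes with an intensity trend (limma 3.58.1, R 4.3.3), with 4 residual and 7.1 prior degrees of freedom. The carboplatin difference, averaged over both rosiglitazone settings, and the interaction had two-sided tests, adjusted over all tested probe sets by Benjamini-Hochberg, at 0.05. Intervals are 95%. The fit was also run on simulated data with independent noise, added carboplatin differences of at least 1 and no interaction. That run does not bear on smaller differences.

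The comparison, the gene lists and the genes named were chosen with earlier results of these data known. Named were called genes, the 10 smallest p-values in a direction with few calls, the 3 smallest of each list, every tested p53 target, for the interaction the 5 smallest, and CDKN1A, ERF, GDF15, MDM2 and CDC20. Lists have no test of their own. Alternatives were the deposited and median scaling, pseudocounts of 1 and 64, no filter or one at the 60th percentile, no trend, the replicate number as a block, array brightness as covariate, an additive model, no rosiglitazone term, all probe sets of a gene averaged for the lists, and leaving out each array.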

Additional observations from a re-analysis of the deposited data

How the results depend on the processing

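The count of probe sets called higher with carboplatin was 4, and 1 with the deposited scaling. With the additive model, with no intensity trend and with dim probe sets kept it was 2, and it was 2 to 4 when each array was left out in turn, where the lone array of a group is assumed to vary like the others. The 4 called without the second rosiglitazone array shared 3 with those above. The interaction count was 3 with the deposited scaling and 0 in every other setting run. The cause was not tested. The 84 gene differences followed left out p53 targets near 0, among them GADD45A, PPP1R15A, TP53I3 and APAF1. All 84 kept their sign in every alternative that tested them, and the signs of those left out were not followed. Of 30 list medians 11 kept theirs, and 9 changed sign with the deposited scaling, which put the median of all probe sets at -0.097. The replicate number as a block gave 3 calls. It was not used as a pairing, because the differences between the first and second arrays correlated between groups at only -0.11 to 0.25. With 2 arrays per group the number of arrays limits precision, and a difference within 0.3 of 0 is inside the typical 95% interval of a gene.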
